A study of Mus musculus with 8 samples.

Results

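Cytosolic ribosomal protein genes encode the proteins of the ribosome that translates mRNA in the cytoplasm. Members were the genes of the array's annotation with an Rpl or Rps symbol made of a number and at most the letter a, x or y, together with Rpsa, Rplp0, Rplp1 and Rplp2; S6 kinases and pseudogenes were left out. The rule found 69 genes of 20738 named genes on the array, read by 169 of 31465 features (spots) with 1 gene symbol. Of the 69, 41 belong to the large subunit, 3 to its stalk and 25 to the small subunit. Rps27a, chosen as an index gene for its ubiquitin fusion, was not analysed here. Rps3a of the annotation is now called Rps3a1.

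Liver RNA came from male mice of the outbred CD-1 stock after 7 days on a diet with 0 ppm (control, 4 arrays) or 2500 ppm NaPB (4 arrays), the sodium salt of phenobarbital, a drug that acts on hepatocytes through the nuclear receptor CAR. All groups share strain, sex, tissue and duration. Whether the 4 arrays per diet are 4 animals is not in the labels, and the p-values then rest on the spread between these samples alone, which may be technical. Values are linear spot intensities as deposited, 1 colour per array. Each gene was read through its brightest feature, the one with the highest mean log2 value over the 8 arrays. Levels of different genes are not compared, because each spot has its own response.

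Ribosomal proteins are made in near-equal numbers, 1 copy per ribosome for most of them, and their mRNAs are among the most abundant of a liver cell. In vertebrates these mRNAs carry a 5′ terminal oligopyrimidine (TOP) tract, a C followed by a run of C and T, through which mTOR and the protein LARP1 control how strongly they are translated. Because that control acts on translation, mRNA level and protein output of these genes can part. Their promoters mostly lack a TATA box and often hold ETS-type sites.

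The pyrimidine run is shown here for members at the high and low ends of the diet difference and for index genes, because mRNAs of this family are known to carry such a tract, as are some mRNAs outside it. The RefSeq promoter windows of build GRCm38.p6 matched 55 of the 69 members with 65 windows. Each line gives 50 bases, 30 before the RefSeq gene start and 20 from it on, on the gene's strand. Capitals mark the run nearest to the start, defined as a C followed by at least 5 bases that are each C or T and beginning within 20 bases on either side of the start.
Rpl4 (chr9:64173357-64173406, + strand): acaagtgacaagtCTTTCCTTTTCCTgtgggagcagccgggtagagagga
Rps21 (chr2:180257349-180257398, + strand): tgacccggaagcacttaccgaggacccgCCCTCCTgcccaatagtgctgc
Rpl12 (chr2:32961682-32961731, + strand): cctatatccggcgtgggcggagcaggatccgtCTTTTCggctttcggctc
Rps6 (chr4:86857348-86857397, - strand): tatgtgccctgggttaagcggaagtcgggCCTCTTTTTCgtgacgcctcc
Rplp2 (chr7:141447621-141447670, + strand): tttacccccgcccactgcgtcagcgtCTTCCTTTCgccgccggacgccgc
Rps27 (chr3:90213629-90213678, - strand): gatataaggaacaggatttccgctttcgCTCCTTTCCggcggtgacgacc
Rpsa (chr9:120127736-120127785, + strand): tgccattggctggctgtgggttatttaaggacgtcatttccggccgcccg

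Such a run was found in 40 of the 65 member windows (61.5%), against 31.9% of all 32851 promoter windows of the same length. Rpsa has no run under this definition around the start in the table, which says only that these letters are not in this stretch. Rps21 has a second window (chr2:180257419-180257468), not printed, that also has no run. The marked run of Rpl4 begins 17 bases before the RefSeq start and is 13 bases long, so it ends before that start. Over the full 300 bases, CCGGAAG, an ETS-type motif searched on both strands, was in 38.5% of member windows and 8.86% of all windows. Its reverse complement begins with the letters CTTCC and can overlap a pyrimidine run. The palindrome TCGCGA was in 23.1% against 2.5%, and TATAAA, searched on both strands, in 9.23% against 13.6%. Members with and without a run overlapped in their diet difference. The 37 members with a run had a median log2 fold change of 0.20, with a range from -0.08 to 0.77. The 18 members without one had a median of 0.28, with a range from 0.11 to 0.59. The 14 members without a window are in neither group, among them Rpl17 and Rps29, the highest and the lowest difference of the family, and Rpl32. A match is a description of letters, not of a bound site.

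No cytosolic ribosomal protein gene passed the test between the diets in the values as deposited. The limma fit (adjusted over all 20738 genes, two-sided) called 0 of the 69 members at an adjusted p below 0.05, against 1.01% of all genes (0.391% higher and 0.617% lower), and the smallest adjusted p of a member was 0.378. At an unadjusted p below 0.05 there were 3 members, Rpl4, Rpl17 and Rpl32 (4.35% of members), against 10.1% of all genes. That count hung on single arrays. It was 19 (27.5% of members) without NaPB replicate 4, against 13.9% of all genes. It was 5 without control replicate 1, 3 without control replicate 3, and 0 without any one of control replicates 2 and 4 and NaPB replicates 1, 2 and 3, against 7.63% to 10.9% of all genes. The fitted log2 fold changes, NaPB minus control, ran from -0.16 (Rps29) to 0.91 (Rpl17), with a median of 0.24 against 0.013 for all genes. They lay above 0 for 61 members and below 0 for 8, that is 88.4% above 0 against 51.2% of all genes. With 1 array left out, 48 to 68 members lay above 0, the fewest without control replicate 2 or NaPB replicate 2. The median was 0.27 over the 44 genes of the large subunit and stalk and 0.22 over the 25 of the small subunit. With genes under the median of mean log2 value left out, it was 0.25 over the 68 members kept and 0.054 over all genes kept. No member had all 4 NaPB arrays on one side of all 4 control arrays, where 2.72% of all genes did so upward and 4.31% downward.

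The members' values shifted together from array to array, within each diet. Relative to each gene's control mean, their median lay at 0.37, -0.47, 0.20 and -0.12 log2 units on control replicates 1 to 4. On NaPB replicates 1 to 4 it lay at 0.42, 0.73, 0.42 and -0.49. The whole family therefore spanned 1.22 log2 units from array to array, with a within-diet SD of 0.455, next to a diet median of 0.24. Control replicate 1 was above the control mean for 69 of 69 members and control replicate 2 below it for 68. NaPB replicate 2 was above it for 69 and NaPB replicate 4 below it for 67. NaPB replicate 4 was the lowest NaPB array for all 69 members and NaPB replicate 2 the highest for 65.

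**Figure D1:**
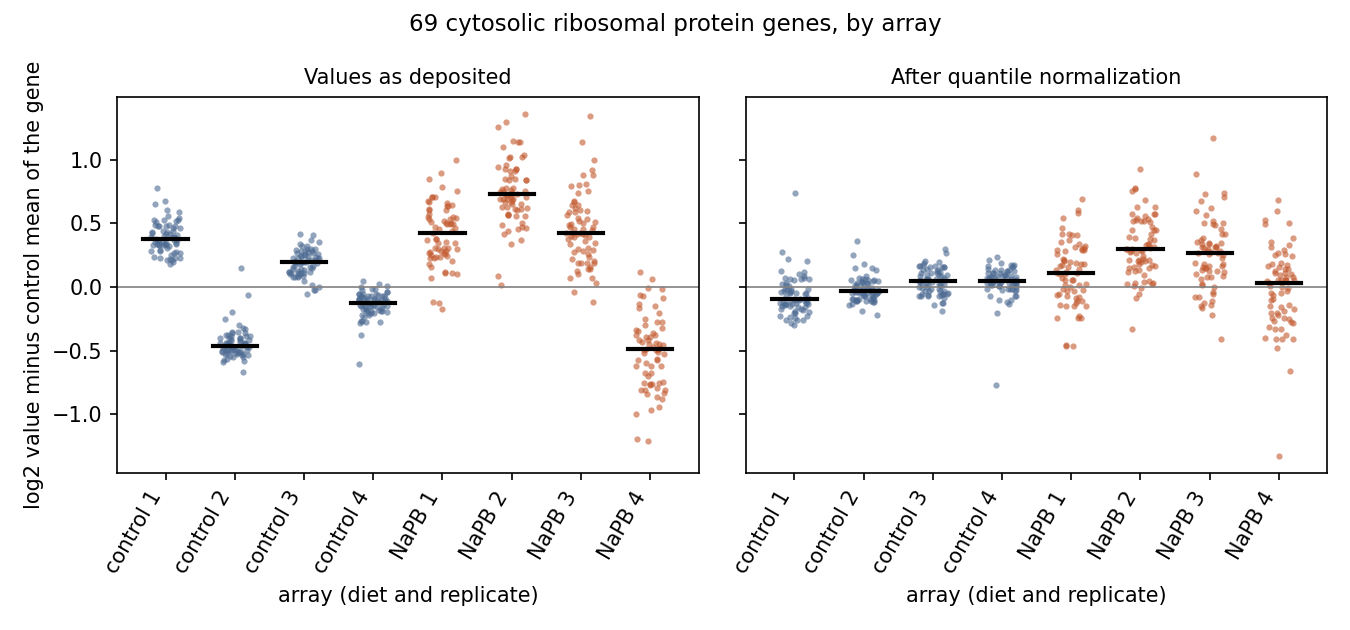
Each point is 1 of the 69 ribosomal protein genes on 1 array, as its log2 value minus the gene's mean over the 4 control arrays (vertical axis), and black bars are medians over genes; controls are blue and NaPB arrays orange. As deposited (left) the medians run from -0.49 on NaPB replicate 4 to 0.73 on NaPB replicate 2, and after quantile normalization (right) from -0.10 on control replicate 1 to 0.30 on NaPB replicate 2.

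The upper end of the whole array moved with the members. The 95th percentile of all features was 13.8, 7.89, 11.1 and 9.0 on control replicates 1 to 4 and 12.7, 13.4, 11.3 and 7.21 on NaPB replicates 1 to 4. In log2 units from the control mean, that is 0.43, -0.37, 0.12 and -0.18, then 0.31, 0.39, 0.14 and -0.50. The 75th percentile differed little, from 0.952 to 0.974. No member value was at the floor of its array, and the brightest spot of every array was at least 8.76 times its brightest member. With each array shifted to the same 95th percentile, the members' median log2 fold change was 0.15 against -0.07 for all genes, and 55 of 69 lay above 0, against 43.5% of all genes. In that setting limma called 0 members, with a smallest adjusted p of 0.106, against 377 of all 20738 genes. At an unadjusted limma p below 0.05 there were 12 members (17.4%), against 13.2% of all genes.

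With the arrays brought to one distribution by quantile normalization over all features, the members' spread narrowed and part of the diet difference stayed. Their median within-diet SD went from 0.480 to 0.159 log2 units, whereas that of all genes went from 0.491 to 0.455. The array medians became -0.10, -0.03, 0.05 and 0.05 on the control replicates and 0.11, 0.30, 0.27 and 0.03 on the NaPB replicates. The median log2 fold change of the members was then 0.12 against 0.017 for all genes, and 54 of 69 lay above 0 (51.8% of all genes). Still 0 members were called by limma, against 1.58% of all genes (0.482% higher and 1.1% lower), with 14 at an unadjusted p below 0.05 (20.3% of members, 13.3% of all genes) and a smallest adjusted p of 0.0834, for Rpl17. With 1 array left out in the normalized values, the 14 became 18 without NaPB replicate 4 (17% of all genes). They became 4 (5.8% of members) without control replicate 2, NaPB replicate 2 or NaPB replicate 3, and 7 (10.1%) without control replicate 1 or 3. In these 5 settings the share of all genes was higher, from 10.6% to 13.4%. There were 10 (14.5%) without control replicate 4 and 9 (13%) without NaPB replicate 1, against 11.3% and 11.5% of all genes. The normalized median was then lowest, 0.082, when NaPB replicate 2 was dropped and highest, 0.21, when NaPB replicate 4 was. In these values 16 members (23.2%) had every NaPB array above every control array, against 4.26% of all genes, and 0 had every NaPB array below, against 6.33%. The 16 share the same 8 arrays, so they are not 16 separate results, and a small within-diet spread, as above, makes separation easier. Most features of the arrays were dim, with a 75th percentile of 0.952 to 0.974 as deposited, whereas only 1 member read below 1 in mean. The figures for all genes were not limited to spots as bright as the members. They do not show whether the narrowing or the separation is particular to this family.

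Those 16 members, listed after their values were seen, were Rplp0, Rpl4, Rpl7, Rpl7a, Rpl13a, Rpl17, Rpl23, Rpl27, Rpl29, Rpl32, Rpl37 and Rpl39 of the large subunit and Rps7, Rps19, Rps21 and Rps28 of the small subunit. Their quantile-normalized log2 fold changes ran from 0.15 for Rplp0 to 0.82 for Rpl17.

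**Figure D2:**
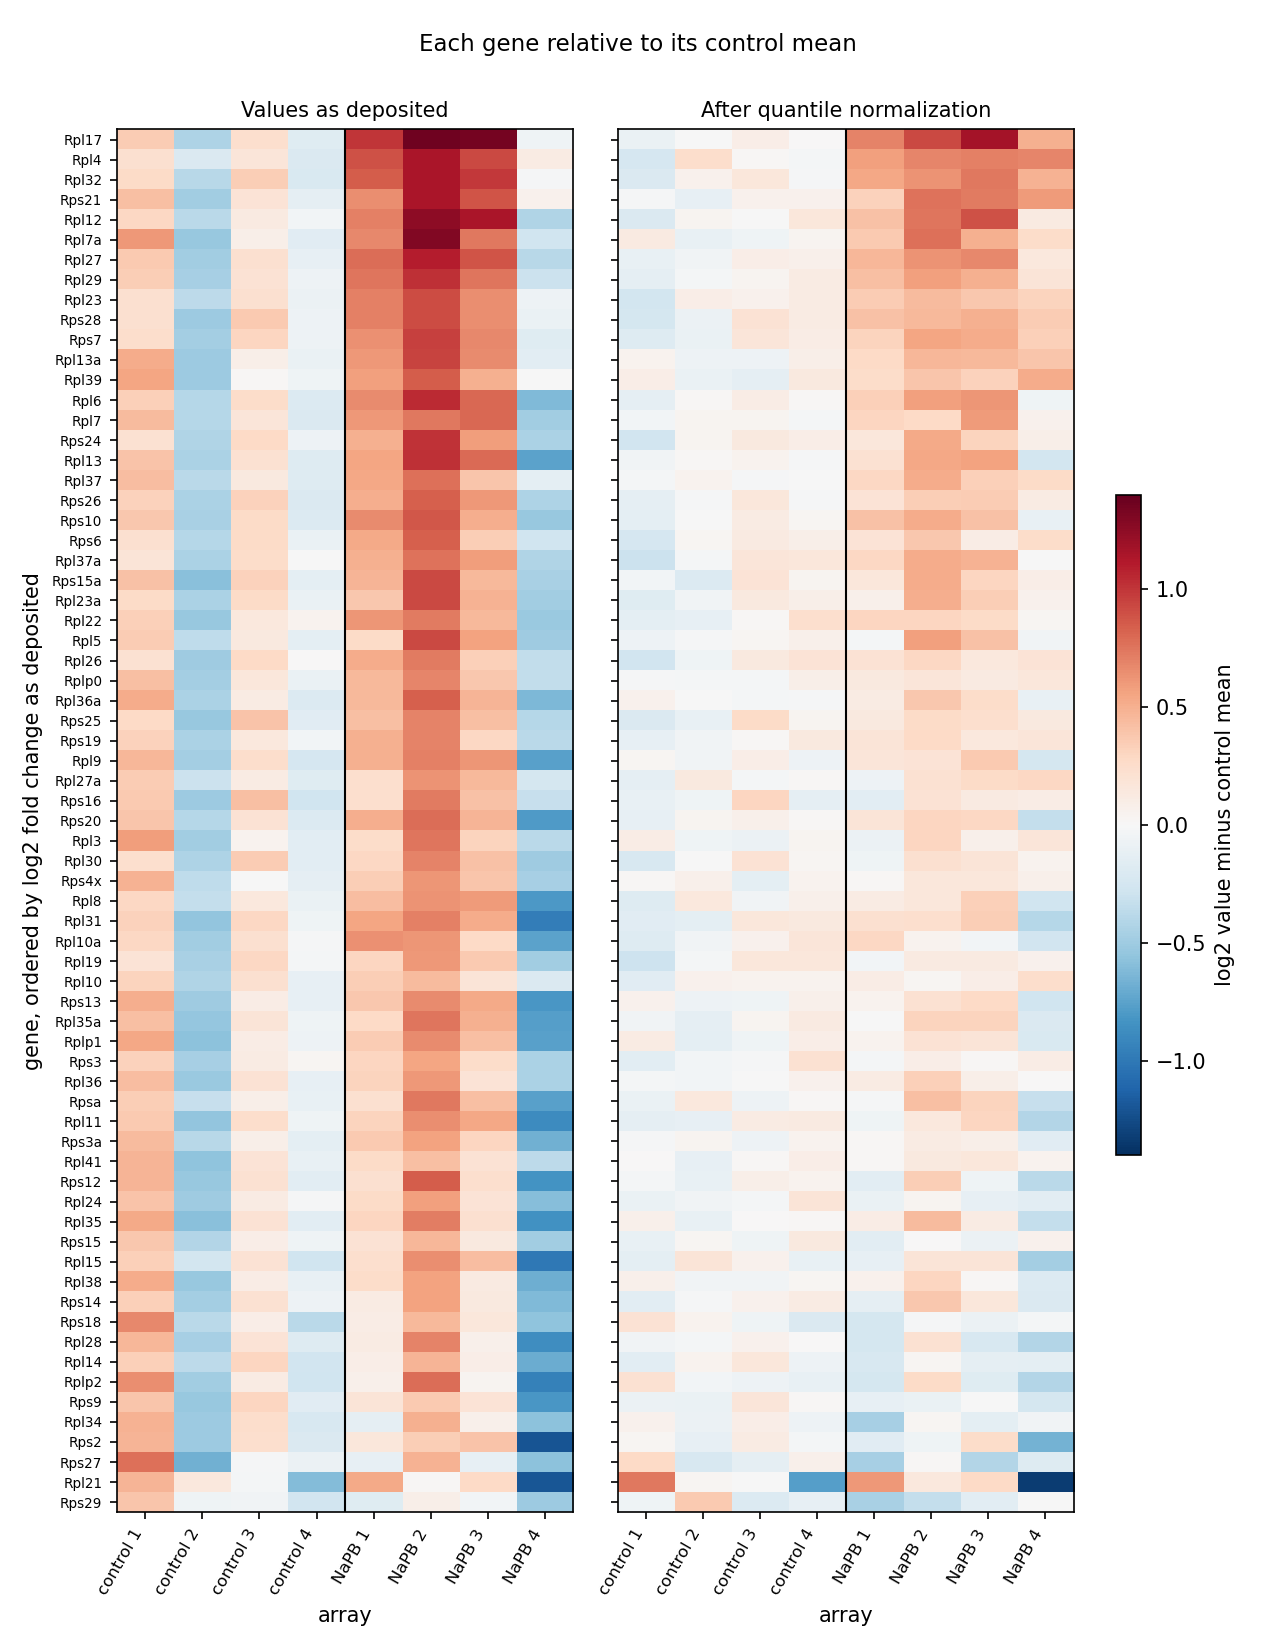
Each row is 1 of the 69 genes, ordered by log2 fold change as deposited, and each column 1 array; colour is the log2 value minus the gene's control mean, red above and blue below, on one scale for both panels. Most rows of the left panel share the colours of their column, such as the blue columns of control replicate 2 and NaPB replicate 4, and the right panel, after quantile normalization, keeps red in the NaPB columns mainly for the upper rows.

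Among the large subunit genes, the highest fitted difference was that of Rpl17, whose protein lines the tunnel through which the new chain leaves. Rpl17 read 33.6, 19.5, 31.0 and 23.3 on control replicates 1 to 4 and 52.3, 67.4, 66.6 and 25.1 on NaPB replicates 1 to 4. NaPB replicates 1 to 3 were above every control array, and NaPB replicate 4 lay inside the control range. The log2 fold change was 0.91 ± 0.36 (limma SE, n = 4 and 4; limma adjusted p = 0.407). After quantile normalization Rpl17 read 25.2, 26.8, 28.7 and 27.0 on the controls and 43.5, 51.2, 60.5 and 38.1 on the NaPB arrays, with no overlap. That difference was 0.82 ± 0.19 (limma adjusted p = 0.0834).

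Rpl4 encodes another protein that lines the tunnel. Rpl4 read 32.9, 24.5, 31.8 and 24.6 on control replicates 1 to 4 and 52.4, 62.1, 53.3 and 30.5 on NaPB replicates 1 to 4. Again only NaPB replicate 4 fell inside the control range. The log2 fold change was 0.77 ± 0.30 (limma adjusted p = 0.378), and 0.66 ± 0.17 after quantile normalization (limma adjusted p = 0.108).

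Rpl32, a large subunit gene long used as a reference transcript, read 87.4, 55.8, 92.1 and 62.6 on the controls and 131, 160, 145 and 72.1 on NaPB replicates 1 to 4. The same array broke the separation. Its log2 fold change was 0.74 ± 0.33 (limma adjusted p = 0.476), and 0.60 ± 0.16 after quantile normalization (limma adjusted p = 0.136).

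Rpl12, a protein at the base of the stalk, read 78.2, 49.4, 69.9 and 62.4 on the controls and 104, 153, 141 and 47.9 on the NaPB arrays. NaPB replicate 4 was below all 4 controls while the other NaPB arrays were above all of them. The log2 fold change was 0.67 ± 0.38 (limma adjusted p = 0.644). After quantile normalization it was 0.54 ± 0.21 (limma adjusted p = 0.315), still with overlap.

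The small subunit gene with the highest difference was Rps21. Rps21 read 13.4, 7.14, 11.4 and 9.19 on control replicates 1 to 4 and 15.7, 22.1, 18.5 and 10.47 on NaPB replicates 1 to 4. NaPB replicates 1 to 3 were above every control and NaPB replicate 4 was not. The log2 fold change was 0.68 ± 0.32 (limma adjusted p = 0.523), and 0.60 ± 0.17 after quantile normalization (limma adjusted p = 0.147).

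Calls for these genes appeared under a few settings. Without NaPB replicate 4 alone, 0 members were called by limma (1.76% of all genes), with an adjusted p of 0.0707 for Rpl17. With array weights, which gave control replicate 1 and NaPB replicate 4 less influence, Rpl17 and Rpl4 were called (log2 fold changes 1.2 and 0.97, limma adjusted p = 0.0346 and 0.0379), against 3.92% of all genes. With quantile normalization and without NaPB replicate 4, Rpl17 was called (0.93, limma adjusted p = 0.035; 2.93% of all genes called). Without control replicate 1 and NaPB replicate 4 together, Rpl17 was called as well (1.35, limma adjusted p = 0.0401; 2.75% of all genes called). In that last setting the members' median was 0.64, and all 69 lay above 0, against 52.3% of all genes. There 41 members (59.4%) were at an unadjusted limma p below 0.05, against 20% of all genes. With array weights all 69 lay above 0 as well (51.9% of all genes), and 25 (36.2%) were below that threshold, against 19% of all genes. Control replicate 1 was above the control mean, and NaPB replicate 4 the lowest NaPB array, for all 69 members. Leaving both out therefore raises every member's difference by construction, and weighting them down pulls the same way. These settings are no separate support for a rise. With single arrays left out the members' median was 0.11 without control replicate 2 and 0.38 without control replicate 1.

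Measured against the family itself, no member passed the test either. With each array shifted to the same mean over the 69 members, which sets their mean difference to 0, their median within-diet SD was 0.120 log2 units. Taking out their shared movement narrows that spread by itself. On that scale Rpl17 was at 0.64, Rpl4 at 0.49, Rpl32 at 0.47 and Rps21 at 0.41, and Rps29 was at -0.43. None was called (limma adjusted p of 0.177 for Rpl17 and from 0.298 to 0.464 for the others). Over all 20738 genes, limma called 359 in that setting, 63 higher and 296 lower, and their median log2 fold change was -0.26.

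**Figure D3:**
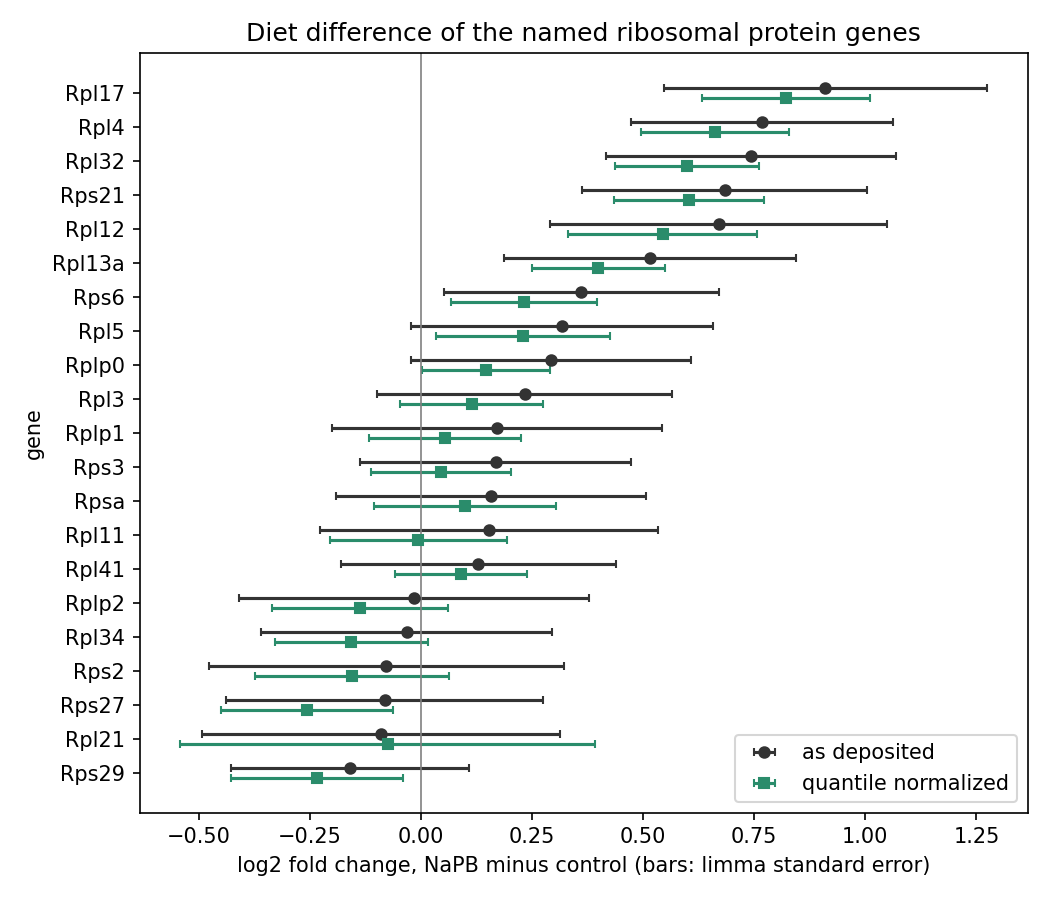
Log2 fold change, NaPB minus control (horizontal axis), of 21 ribosomal protein genes, with bars of 1 limma standard error and 4 arrays per diet; black circles are values as deposited and green squares quantile-normalized values. Rpl17, Rpl4, Rpl32 and Rps21 lie from 0.60 to 0.91 in both, with shorter bars after normalization.

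The stalk of the large subunit, which recruits elongation factors, is built from Rplp0, Rplp1 and Rplp2. Rplp0, widely used as a reference transcript, read 119, 64.0, 99.1 and 83.2 on the controls and 122, 143, 115 and 70.4 on the NaPB arrays. The diets overlapped through NaPB replicates 3 and 4, and the log2 fold change was 0.29 ± 0.31 (limma adjusted p = 0.837). After quantile normalization Rplp0 was 0.15 ± 0.14, with a within-diet SD of 0.053 on the controls and 0.022 on the NaPB arrays. Rplp1 was at 0.17 ± 0.37 and Rplp2 at -0.016 ± 0.39 as deposited, and at 0.055 and -0.14 after normalization.

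Other members with roles of their own lay from 0.13 to 0.52 as deposited, with limma standard errors of 0.30 to 0.38, and none passed the test. Rps6, the substrate of S6 kinases downstream of mTOR, read 38.4, 24.8, 39.5 and 30.8 on the controls and 47.5, 58.6, 41.7 and 27.1 on the NaPB arrays. Its log2 fold change was 0.36 ± 0.31 (limma adjusted p = 0.782). Rpsa, a small subunit protein also known as a laminin receptor, was at 0.16 ± 0.35, and Rps3, which lines the mRNA entry channel, at 0.17 ± 0.30. Rpl5 and Rpl11, which form a particle with 5S RNA that binds Mdm2, were at 0.32 ± 0.34 and 0.15 ± 0.38. Rpl3, near the peptidyl transferase centre, was at 0.23 ± 0.33 and Rpl41, a very short basic protein, at 0.13 ± 0.31. Rpl13a, known from translational silencing of inflammatory mRNAs, was at 0.52 ± 0.33, and at 0.40 ± 0.15 after normalization (limma adjusted p = 0.294), where its diets did not overlap. After quantile normalization Rpl11 was at -0.0064.

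At the low end were Rps29, Rpl21, Rps27, Rps2 and Rpl34, from -0.16 to -0.03 on the log2 scale, none with an unadjusted p below 0.05. Rpl21 was the only member whose brightest feature read below 1 in mean, with 0.13 to 0.43 over the 8 arrays, so its value rests on dim spots. Rps29, a zinc-binding protein of the small subunit, read 239, 175, 176 and 152 on the controls and 162, 194, 178 and 128 on the NaPB arrays. Control replicate 1 was the highest and NaPB replicate 4 the lowest, and the log2 fold change was -0.16 ± 0.27 (limma adjusted p = 0.899). Rps27, another zinc-binding protein of the small subunit, read 241, 88.4, 139 and 133 on the controls and 130, 197, 130 and 94.5 on the NaPB arrays. It was at -0.08 ± 0.36, and at -0.26 ± 0.19 after normalization (limma adjusted p = 0.653). Rps2, which lies at the mRNA entrance, was at -0.08 ± 0.40. Without NaPB replicate 4, the differences of Rpl21, Rps27, Rps2 and Rpl34 were 0.28, 0.08, 0.30 and 0.15, above 0 in place of below, and that of Rps29 was -0.04.

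Several features for 1 gene let the difference be read more than once. There were 51 members with several features and 18 with 1. Over all 169 features, 140 were above 0 and 29 below, with a median log2 fold change of 0.23, and the range between features of a gene had a median of 0.25 log2 units. Genes with many features weigh more in these counts. Rpl23 alone had 12, which from the third in brightness on were dim, with mean log2 values of 0.21 to 0.45 and differences from -0.28 to 0.22. Of all member features, 13 read below 1 in mean. In 16 genes the features pointed both ways. Of the 169, 1 had every NaPB array above every control array (2.58% of all features) and 2 had every one below (4.13%). All 7 features of Rpl17 were above 0, from 0.33 to 0.96. The second in brightness was nearly as bright as the one used (mean log2 value 5.09 against 5.17), yet was at 0.36 in place of 0.91. The third was at 0.33, and the fourth to seventh ran from 0.69 to 0.96. With the mean of all its features Rpl17 was at 0.72 ± 0.31 (limma adjusted p = 0.483), so its size depends on the feature chosen.

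With all features tested singly, 1 of the 169 was called, against 0.849% of all features: the dimmest of the 4 features of Rpl6, a large subunit gene. It read 0.632, 0.712, 0.418 and 0.486 on control replicates 1 to 4 and 0.207, 0.197, 0.186 and 0.0833 on NaPB replicates 1 to 4, with every NaPB array below every control. Its log2 fold change was -1.79 ± 0.35 (limma adjusted p = 0.0451 over features). The other 3 features of Rpl6 were at 0.47, 0.14 and 0.41. The call was lost after quantile normalization (-1.81, limma adjusted p = 0.0612). It was also lost without any one array other than NaPB replicate 4, with limma adjusted p from 0.0342 to 0.122 over the 8 settings that leave out 1 array.

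A feature of Rpl7a, whose brightest feature was at 0.61, showed the opposite. This feature, the third of 4 in brightness, read 14, 7.82, 9.97 and 9.91 on the controls and 21.8, 28.2, 20.9 and 13.2 on the NaPB arrays. Its log2 fold change was 0.99 ± 0.32 (limma adjusted p = 0.251), and after quantile normalization it was the only member feature called, against 1.33% of all features (0.91 ± 0.16, limma adjusted p = 0.0383). In the normalized values with 1 array left out, that call held only without NaPB replicate 4, and the difference ran from 0.85 to 0.95 with limma adjusted p up to 0.135.

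For Rpl30 the dimmest of 3 features was at -0.98 ± 0.32 (limma adjusted p = 0.262), with every NaPB array below every control, while the other features were at 0.22 and 0.68. That feature is assigned to another RefSeq transcript record of the gene. The second feature of Rpl8, at -0.59, and the second of Rpsa, at -0.43, also differed in sign from the brightest, at 0.21 and 0.16. Without NaPB replicate 4 the Rpl8 and Rpsa features were at -0.28 and -0.19 as deposited. After quantile normalization with all 8 arrays they were at -0.69 and -0.56 (limma adjusted p = 0.115 and 0.199 over features). Normalized without NaPB replicate 4 they were at -0.61 and -0.53, so the opposite sign did not rest on that array. These features were singled out after their values were seen.

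**Figure D4:**
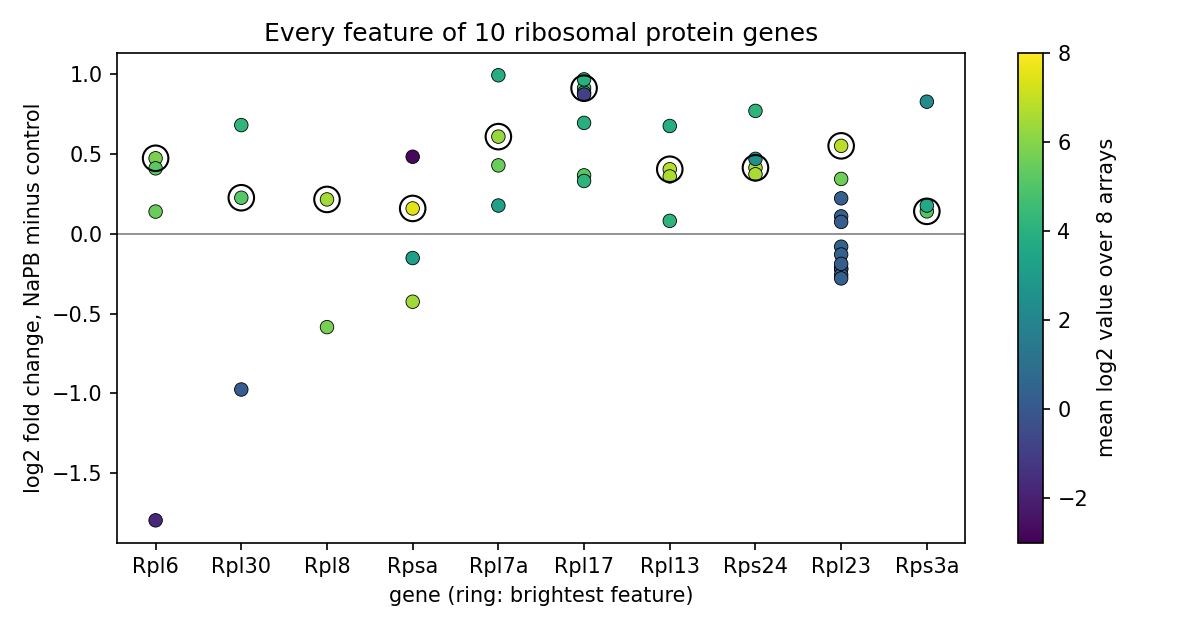
Log2 fold change, NaPB minus control (vertical axis), of every feature of 10 ribosomal protein genes chosen after their values were seen; colour is the mean log2 value of the feature and a ring marks the brightest one, which stands for the gene. The dimmest feature of Rpl6 lies at -1.79 while the other 3 lie above 0, and all 7 features of Rpl17 lie above 0.

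Other genes of the translation machinery, taken from lists, are described by their counts and medians. Of 78 mitochondrial ribosomal protein genes, 0 were called and 53 lay above 0, with a median log2 fold change of 0.20, and of 0.12 after quantile normalization. Of 18 translation factor and other genes with known TOP transcripts, 0 were called, with medians of 0.18 and 0.11; Naca, of the nascent chain complex, was at 0.46 and the non-coding host transcript Gas5 at -1.2, neither past the test. Gas5 read 0.642 and 0.669 on NaPB replicates 1 and 2 but 3.96 and 4.43 on NaPB replicates 3 and 4, next to 3.14 to 4.2 on the controls. Of 43 genes of ribosome biogenesis and RNA polymerase I, 0 were called and 33 lay above 0, with a median of 0.19 in both. The 30 other translation factor genes (0 called) had medians of 0.15 and 0.090. The 20 genes of mTOR signalling and of transcription of ribosomal protein genes (0 called, 10 above 0) had medians of -0.0037 and 0.010.

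These medians too changed with the arrays used. With 1 array left out of the deposited values, that of the mitochondrial ribosomal protein genes was 0.072 at the lowest, when control replicate 2 was dropped, and 0.43 at the highest, when NaPB replicate 4 was. The TOP list ran from 0.039 to 0.40 and the other translation factors from 0.052 to 0.29, with the same arrays at the ends. The ribosome biogenesis genes ran from 0.10 to 0.23, and Nhp2, a protein of box H/ACA particles, was called higher without NaPB replicate 4 (1.42, limma adjusted p = 0.0258). The genes of mTOR signalling and transcription ran from -0.14 to 0.093. The members were lowest at 0.10, when NaPB replicate 2 was dropped, and highest at 0.51, when NaPB replicate 4 was.

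A shift by array was also seen in a list outside translation. On NaPB replicate 4 the median of the 69 respiratory chain subunit genes was -0.68 log2 units from the control mean and on NaPB replicate 2 it was 0.51, where the ribosomal protein genes were at -0.49 and 0.73. Their median log2 fold change was 0.13 as deposited and 0.038 after normalization, where 1 of them, Ndufa8, was called higher (limma adjusted p = 0.043), a call that held only without NaPB replicate 4 when 1 array was left out. The respiratory chain median as deposited was -0.021 when control replicate 2 was dropped and 0.43 when NaPB replicate 4 was. The ribosome biogenesis genes moved less, to -0.07 and 0.40 on those arrays. Differences between lists were not tested.

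**Figure D5:**
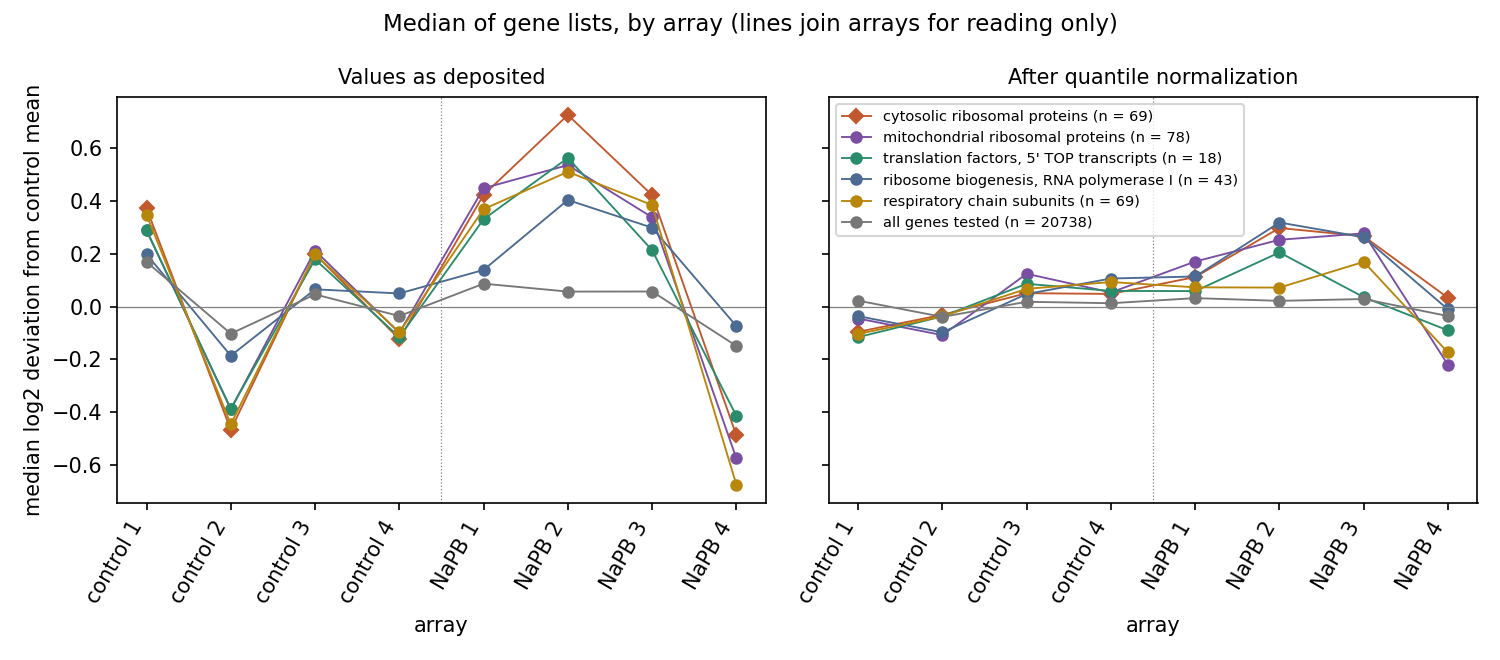
Median over the genes of a list of the log2 value minus the control mean (vertical axis), by array, as deposited (left) and after quantile normalization (right); lines only join points of a list. As deposited, the cytosolic ribosomal protein genes (diamonds) reach 0.73 on NaPB replicate 2 and -0.49 on NaPB replicate 4, next to 0.51 and -0.68 for the respiratory chain genes.

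The tissue and diet labels were checked on the same arrays. Alb, the hepatocyte product serum albumin, read 109 to 611 over the 8 arrays, and none of the 10 hepatocyte markers was at the floor. Cyp2b10, the P450 gene classically induced by phenobarbital, was at 2.66 (geometric mean) on the control diet and 304 on the NaPB diet. Its log2 fold change was 6.84 ± 0.69 (limma adjusted p = 0.0018). NaPB replicate 4, the array lowest in the members, also had the lowest Alb, 109, and the lowest Cyp2b10 of its diet, 77.7. Pearson correlations between arrays over genes, which are not independent, ran from 0.871 to 0.968.

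Markers of other liver cells were read beside the members. The summed intensity of 10 Kupffer cell and macrophage markers was 35.3 to 40.2 on the controls and 25.1 to 29.7 on the NaPB arrays, with 9 of 10 below 0 and none called as deposited. After quantile normalization C1qa, a macrophage complement gene, was called lower (-1.07, limma adjusted p = 0.0241), as were the hepatocyte markers Alb (-1.28) and Apoa1 (-1.10). With 1 array left out, the C1qa call held in 3 of the 8 settings, that of Alb in 2 and that of Apoa1 in 1. The 10 hepatocyte markers summed to 6558 to 11740 and 6438 to 7881, with 6 of 10 below 0. Of 5 neutrophil markers all lay above 0 and S100a8 was called, 6.43 higher on the log2 scale (limma adjusted p = 0.0176). S100a8 read 0.246 to 0.464 on the controls and 46.3, 126, 71.0 and 2.02 on NaPB replicates 1 to 4. Its call held without control replicate 4, NaPB replicate 2 or NaPB replicate 4 and was lost without any one of the other 5 arrays. Its partner S100a9 was at 0.84 (limma adjusted p = 0.677) and highest on NaPB replicate 4. With all 8 arrays, no gene of the T cell (5), B cell (3), erythroid (4), endothelial (6), stellate (6) or cholangiocyte (5) markers was called. Without control replicate 1 the erythroid gene Alas2 was called lower, as deposited (-2.8, limma adjusted p = 0.0137) and normalized (-2.9, limma adjusted p = 0.0152). After normalization without NaPB replicate 4 the stellate gene Reln was called lower (-1.08, limma adjusted p = 0.035). The part of these cell types in the members' values was not tested. In whole liver, fewer cells of a type and less RNA per cell cannot be told apart.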

How the data were processed

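Liver RNA of 8 samples was hybridised to one-colour Agilent arrays, and per the labels and the submitters' processing notes the authors read the scans with Agilent Feature Extraction 10.7. What the authors deposited is 1 linear intensity per spot and array; for background correction, flags and scaling rule the sources used here give nothing. Probe symbols were updated through RefSeq tables of GRCm38.p6 (3282 features changed symbol), and 31511 of 62976 features without a symbol were left out.

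The brightest feature per gene was taken as log2 of the intensity with no pseudocount, filter or further scaling. The model had diet as its term (R 4.3.3, limma 3.58.1; two-sided), with Benjamini-Hochberg adjustment over 20738 genes; the call threshold was an adjusted p of 0.05. A value up to 2 times the lowest of its array counted as at the floor. The fit was tested on simulated data in which genes varied independently and planted differences were larger than any member's in the deposited values. That test covers neither a shift shared by many genes nor differences as small as the members'. The number of arrays limits the precision.

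Named members are all called members, the 5 highest and 5 lowest log2 fold changes and 12 index genes fixed by role, of which 11 were measured; in other lists, the 2 smallest p. The members, lists and alternatives were chosen with earlier results of these data known. Alternatives covered scaling, filter, feature choice, pseudocount of 1, variance model, array weights, replicate block, thresholds and left-out arrays. Tables were made with pandas 2.3.3 and numpy 2.4.6 under Python 3.11.15, and figures with matplotlib 3.10.9.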

Additional observations from a re-analysis of the deposited data

Results flagged for a closer look

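Of 46 groups of 4 arrays examined (named ribosomal protein genes and summary values in each diet), 1 had an array far from the others. Rps2, a small subunit gene, read 25.1, 28.5 and 29.7 on NaPB replicates 1 to 3 and 9.72 on NaPB replicate 4. The gap from NaPB replicate 4 to the nearest array was 0.848 of the whole range on the log2 scale. Chance alone flags about 1 in 20 such groups.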

How the results depend on the processing

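The count of called members stayed at 0 except for 2 with array weights, 1 with quantile normalization without NaPB replicate 4 and 1 with all features tested singly; over the settings that leave out arrays from the deposited values it was 0 to 1, the 1 being Rpl17 without control replicate 1 and NaPB replicate 4. The count over all genes, 209 in the report, was 328 with quantile normalization, 111 with a shift to the same median, 359 with a shift to the same mean over members, 377 with a shift to the same 95th percentile and 812 with array weights. It was 364 at an adjusted p below 0.1 and 58 below 0.01. It was 88 to 570 with arrays left out. With quantile normalization it was 607 without NaPB replicate 4, 125 without NaPB replicate 1, 116 without NaPB replicate 3, 109 when control replicate 3 was dropped and 134 when control replicate 4 was. The shifts to the members' mean and the 95th percentile, quantile normalization with other arrays than NaPB replicate 4 left out, and single features with arrays left out were added after the data were seen.

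Differences near 0 changed sign. With array weights the log2 fold changes were 0.022 for Rps29, 0.41 for Rpl21, 0.15 for Rps27, 0.29 for Rps2, 0.16 for Rpl34 and 0.31 for Rplp2. Rps2 was at 0.0026 with the mean of all features, and with quantile normalization without NaPB replicate 4 it was at 0.014 and Rpl21 at 0.345. Rpl11 was at -0.0064 with quantile normalization. With arrays left out, Rps29 ran from -0.25 to 0.086, Rpl21 from -0.30 to 0.44, Rps27 from -0.30 to 0.34, Rps2 from -0.25 to 0.46, Rpl34 from -0.21 to 0.31, Rplp2 from -0.28 to 0.51, Rplp1 from -0.021 to 0.66, Rpsa from -0.038 to 0.58, Rpl11 from -0.030 to 0.62 and Rpl41 from -0.060 to 0.45. The cause of these changes was not tested.

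Same-numbered arrays deviated together with correlations of 0.23, -0.29, 0.038 and 0.23, so the numbers were not taken to pair the samples. With the replicate block, 135 genes and 0 members were called. With genes under the median of mean log2 value left out, 68 members were tested. Signal over background is unknown, and 4 arrays per diet limit what can be called.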
